A study of Rattus norvegicus with 6 samples.

Results

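Genes of the TGF-beta pathway were followed in stromal cells grown from the blood and the marrow of the same rats. The genes were the ligands Tgfb1, Tgfb2 and Tgfb3, the receptors Tgfbr1, Tgfbr2 and Tgfbr3, the signal transducers Smad3 and Smad7, and the latent TGF-beta binding proteins Ltbp1 and Ltbp2. Members were all probe sets whose gene symbol in the platform annotation was one of these 10 names. This gave 15 probe sets for 9 genes, out of 15923 probe sets on the array, and the annotation used here names no probe set for Tgfbr2. There were 3 cultures of mesenchymal stromal cells from peripheral blood, set against 3 cultures from bone marrow. Each of 3 rats carrying a GFP transgene, named S4, S5 and S6, gave 1 culture of either kind. All 6 cultures were adherent cells grown in the same medium to passage 2, so neither group is freshly isolated tissue, and no treatment separated them. Which strain the rats were, their age and sex, and which promoter drove the transgene are not given here. RNA was hybridised to Affymetrix RAE230A arrays, 1 per culture.

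TGF-beta ligands are secreted in a latent form, in which the propeptide holds the mature dimer and an LTBP tethers the complex to the extracellular matrix. Once released, the ligand joins the type II receptor Tgfbr2 with the type I receptor Tgfbr1, often helped by the co-receptor Tgfbr3, and the active receptor phosphorylates Smad2 and Smad3. Smad7 is induced by the pathway and blocks it at the receptor. In marrow stromal cells the pathway is known for its part in proliferation, in matrix production and in the choice between bone, cartilage, fat and smooth muscle fates.

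The upstream sequences of the genes with the widest differences are shown first, because Smad7 is a known direct target of SMAD complexes, which bind the short element GTCT or its reverse complement AGAC. Each is the 250 bases before the gene's start from RefSeq (build GRCr8), read along the gene's strand, with every GTCT or AGAC in capitals. All 10 genes matched an entry by symbol.
Smad7, chr18:71263258-71263507, plus strand: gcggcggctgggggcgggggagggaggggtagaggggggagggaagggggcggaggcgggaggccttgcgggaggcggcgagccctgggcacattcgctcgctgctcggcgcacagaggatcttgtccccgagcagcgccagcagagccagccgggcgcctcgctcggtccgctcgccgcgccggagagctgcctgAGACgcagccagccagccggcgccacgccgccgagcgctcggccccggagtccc
Tgfb2, chr13:100792686-100792935, minus strand: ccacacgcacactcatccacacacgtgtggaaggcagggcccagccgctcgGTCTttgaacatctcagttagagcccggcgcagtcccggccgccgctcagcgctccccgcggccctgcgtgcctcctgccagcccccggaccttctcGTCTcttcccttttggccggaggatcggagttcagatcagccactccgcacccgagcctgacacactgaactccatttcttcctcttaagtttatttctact
Ltbp2, chr6:110257299-110257548, minus strand: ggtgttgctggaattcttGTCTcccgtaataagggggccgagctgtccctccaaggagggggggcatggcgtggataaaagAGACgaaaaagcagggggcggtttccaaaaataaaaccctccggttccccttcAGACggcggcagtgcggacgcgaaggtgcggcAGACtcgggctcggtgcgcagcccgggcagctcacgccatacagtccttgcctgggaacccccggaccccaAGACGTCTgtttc
Smad3, chr8:73132325-73132574, minus strand: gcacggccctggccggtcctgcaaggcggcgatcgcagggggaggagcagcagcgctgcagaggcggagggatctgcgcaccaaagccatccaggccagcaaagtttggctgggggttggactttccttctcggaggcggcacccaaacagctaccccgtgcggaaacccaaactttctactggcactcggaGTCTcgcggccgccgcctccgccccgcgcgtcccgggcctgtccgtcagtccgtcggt
The window of Smad7 held 1 such element, that of Tgfb2 2, that of Ltbp2 6 and that of Smad3 1. At least 1 was found in 7 of the 10 windows, against 84% of 33469 rat promoter windows of the same length. The longer palindrome GTCTAGAC was in 0 of the 10 windows and in 0.173% of all windows. Elements outside these 250 bases, or near another start of the gene, were not looked for. These are matches of letters and not measured binding.

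Values are log2 signals as deposited, with the base of the logarithm read from their range of 0 to 13.31. Array medians lay between 8.12 and 8.22. Over the 8113 probe sets above the signal filter with a value on every array, the blood arrays of rats S4 and S6 correlated at r = 0.972. The blood array of rat S5 correlated with these at 0.889 to 0.907 and with the marrow arrays at 0.863 to 0.893, so it stood apart from the other blood arrays. Results that rest on rat S5 are therefore given with and without it. The stromal markers chosen as a check all passed the signal filter (9 of 9), and Col1a1, a collagen chain of fibroblastic cells, lay between 12.99 and 13.02 in blood and between 12.32 and 12.69 in marrow cultures. Thy1, a surface marker of stromal cells, passed on only 3 arrays: it differed by -2.36, 1.74 and -2.43 in S4, S5 and S6 and was below the median in the blood cultures of S4 and S6 and the marrow culture of S5. Pdgfrb, a receptor of stromal cells and pericytes, was lower in blood in every rat, by -0.55, -0.54 and -0.04. By their means, 7 of the 9 stromal markers were higher in blood cultures. Among these were Eng, by 2.27, 1.11 and 1.47, and Nt5e, by 0.71, 1.09 and 0.52. Only Eng was past the threshold given below. Of 7 endothelial markers none passed the filter, and Pecam1 was at 3.78 to 5.32 in blood and 3.14 to 4.59 in marrow cultures. Of 11 macrophage and leukocyte markers 8 passed. In bulk RNA, fewer cells of a type and less RNA per cell cannot be told apart.

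The comparison asked whether the genes that make, hold and read TGF-beta differ between blood-grown and marrow-grown stromal cells of the same animal. Smad7 was higher in the blood culture of every rat on 2 of its 3 probe sets, and 1 of these, 1368896_at, was the only member probe set past the threshold. Both probe sets of Tgfb2 averaged higher and both of Smad3 lower in blood cultures, with a difference of the same sign in every rat, but neither gene passed. Tgfb1, Tgfb3, Tgfbr1, Ltbp1 and Ltbp2 differed in opposite directions in different rats on the probe sets tested. So did the brightest Smad7 probe set, 1368898_at, with a fitted difference of 0.02.

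Differences are blood minus marrow on the log2 scale with their SE, from a paired limma fit in which each rat had its own level. The threshold was a Benjamini-Hochberg adjusted p of 0.05 over 8135 probe sets. These were the probe sets with a signal above the table's median, 8.18, on at least 3 of 6 arrays. Of the 15 member probe sets 10 passed this filter, standing for 8 genes, and 1 of the 10 was past the threshold, where 2.15% of all probe sets tested were. That 1 was higher in blood cultures, as 0.983% of all were, and none was lower, as 1.17% of all were. In the fit without a filter 0 of the 15 passed, beside 0.517% of all probe sets (at an unadjusted p of 0.05, 6 of the 15 and 11.2% of all). At an unadjusted p of 0.05, 4 of the 10 passed, against 14.1% of all tested, and 1 of these was lower, as 7.55% of all were. The groups did not overlap for 1 of the 10, beside 18.5% of all tested, with none higher in blood cultures, beside 7.14%. The sign was the same in the 3 rats for 4 of the 10, beside 34.2% of all, and 1 of these was lower, beside 19.1%. These 4 were also the 4 with an unadjusted p under 0.05. They were Smad3 1389127_at, Smad7 1368896_at and both probe sets of Tgfb2, so Tgfb2 was counted more than once. The median difference of the 10 was 0.20, beside -0.01 for all probe sets tested. Over all 15 member probe sets it was 0.02, and 9 of the 15 were higher in blood cultures. The filter shapes which members were counted, so these counts are a description. Both Tgfbr3 probe sets and 1 each of Tgfbr1, Smad3 and Smad7 lay below it, and their values come from the same fit without a filter.

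**Figure D1:**
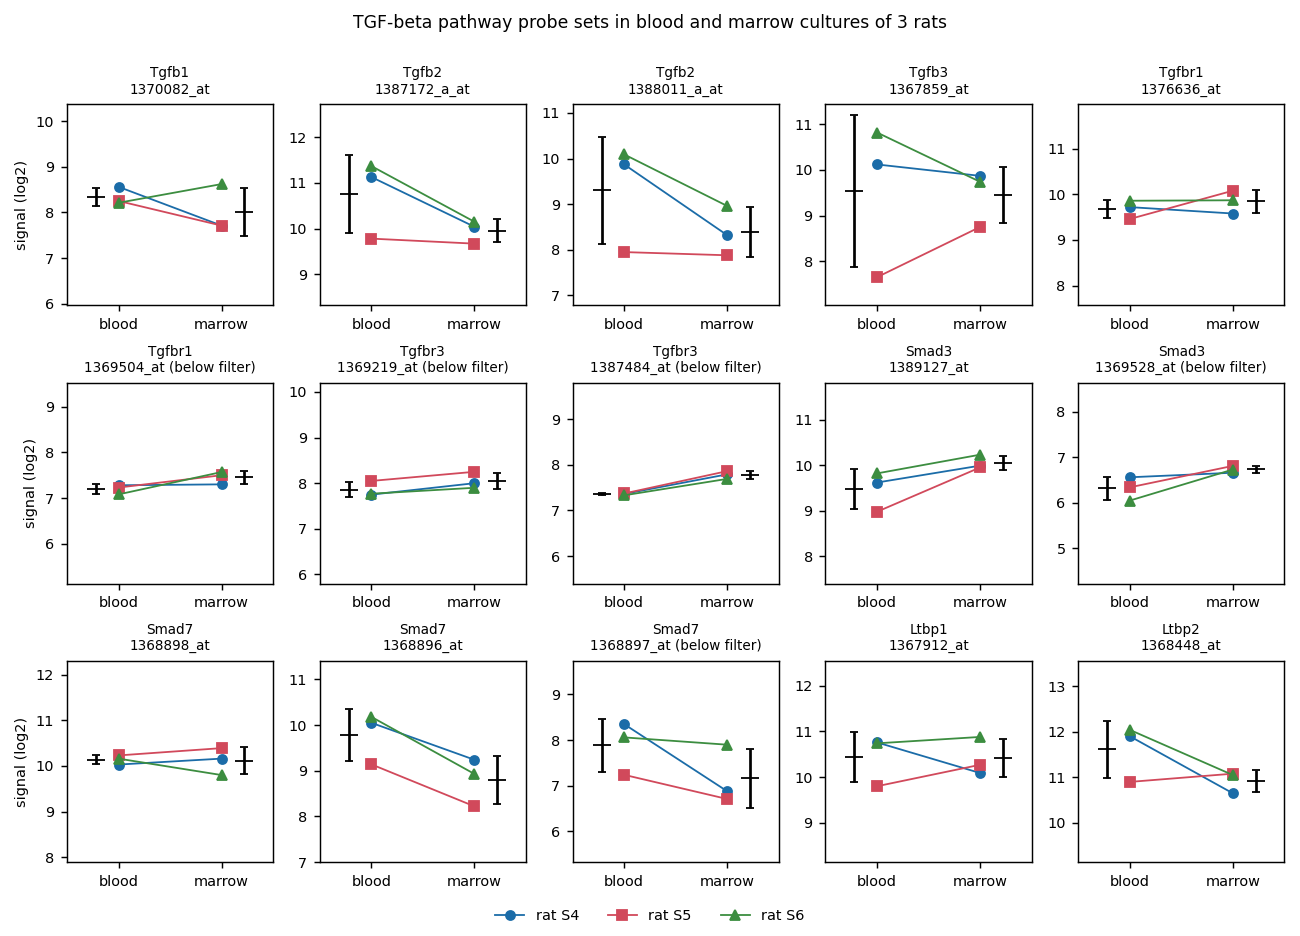
Log2 signal of the 15 member probe sets in blood cultures (left) and marrow cultures (right) of each panel; lines join the 2 cultures of a rat, and black bars are the group mean ± SD (n = 3). Every panel spans 4.4 log2 units around its own centre. On the Smad7 probe set 1368896_at all 3 lines fall towards marrow, while those of Tgfb3 cross.

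Among the ligands, Tgfb2, the isoform best known from developing mesenchyme, showed the widest difference. Probe set 1387172_a_at stood at 11.13, 9.78 and 11.37 in blood cultures of rats S4, S5 and S6, against 10.04, 9.67 and 10.15 in their marrow cultures. The blood cultures of rats S4 and S6 lay above all marrow cultures, and that of rat S5 lay among them. The difference was 0.81 ± 0.24 (95% interval 0.21 to 1.40, adjusted p = 0.214 in limma). The second probe set, 1388011_a_at, read 9.87, 7.95 and 10.09 in the blood cultures, against 8.32, 7.88 and 8.96 in those from marrow. It differed by 0.92 ± 0.29 (adjusted p = 0.238 in limma). Per rat, the probe sets differed by 1.09 and 1.55 in S4, by 0.11 and 0.07 in S5, and by 1.22 and 1.13 in S6. Without rat S5 the differences were 1.16 ± 0.18 and 1.34 ± 0.19 and both passed (adjusted p = 0.0142 and 0.0111 in limma), in a fit with 1 residual degree of freedom that called 4.99% of all probe sets.

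Tgfb3, the third isoform, differed between rats more than between sources. It read 10.12, 7.65 and 10.82 in the blood cultures of S4, S5 and S6, against 9.87, 8.75 and 9.74 in marrow cultures. The blood culture of rat S5 was the lowest of all 6 and that of rat S6 the highest, so the differences were 0.25, -1.10 and 1.08. The fitted difference was 0.08 ± 0.40, with an interval of -0.91 to 1.07 that leaves room for a 2.09-fold rise in blood cultures or a fall to 0.531 of the marrow level. Without rat S5 it was 0.67 and did not pass (adjusted p = 0.242 in limma).

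Tgfb1, the ligand of platelets, immune cells and bone matrix, had a signal close to the table's median. It stood at 8.56, 8.25 and 8.21 in blood cultures and at 7.71, 7.71 and 8.62 in marrow cultures of S4, S5 and S6. Blood was higher in rats S4 and S5, by 0.85 and 0.54, and lower in rat S6, by -0.41. The fitted difference was 0.33 ± 0.25 (interval -0.31 to 0.96, adjusted p = 0.695 in limma). The summed linear signal of the 11 macrophage and leukocyte markers was 11630, 9687 and 10895 in blood cultures of S4, S5 and S6. In their marrow cultures it was 5849, 9056 and 11237. None of these markers was listed at 0, and Ptprc, the pan-leukocyte surface protein, was below the table's median on every array. Of 3 platelet markers only Pf4 passed the filter, at 11.57 to 11.90 in blood and 10.79 to 11.75 in marrow cultures. The others were below the median on all 6 arrays, with differences of -0.15, -0.20 and -0.48 in S4, S5 and S6 for Ppbp and of 0.02, -0.20 and 0.32 for Itga2b. The part of these cells in the Tgfb1 values was not tested.

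Among the member receptors, only Tgfbr1 on probe set 1376636_at was tested above the filter, and it did not pass the threshold. Tgfbr1, the type I kinase, read 9.72, 9.46 and 9.86 on probe set 1376636_at in blood cultures, against 9.58, 10.08 and 9.87 in marrow cultures. The groups overlapped and the difference was -0.16 ± 0.18 (interval -0.61 to 0.28, adjusted p = 0.804 in limma). Its second probe set, below the filter at 7.08 to 7.57, differed by -0.26 ± 0.15. Tgfbr3, or betaglycan, which presents ligand to the signalling receptors, was below the filter on both probe sets. Probe set 1387484_at read 7.36, 7.37 and 7.33 in blood cultures, against 7.79, 7.86 and 7.69 in those from marrow. The groups did not overlap, the per-rat differences were -0.43, -0.49 and -0.36, and the fitted one was -0.43 ± 0.12 (adjusted p = 0.318 in limma without a filter). Probe set 1369219_at differed the same way by -0.19 ± 0.12, at 7.75 to 8.05 in blood and 7.90 to 8.25 in marrow cultures. With no background level known for signals below the median, the size of the Tgfbr3 differences is approximate.

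**Figure D2:**
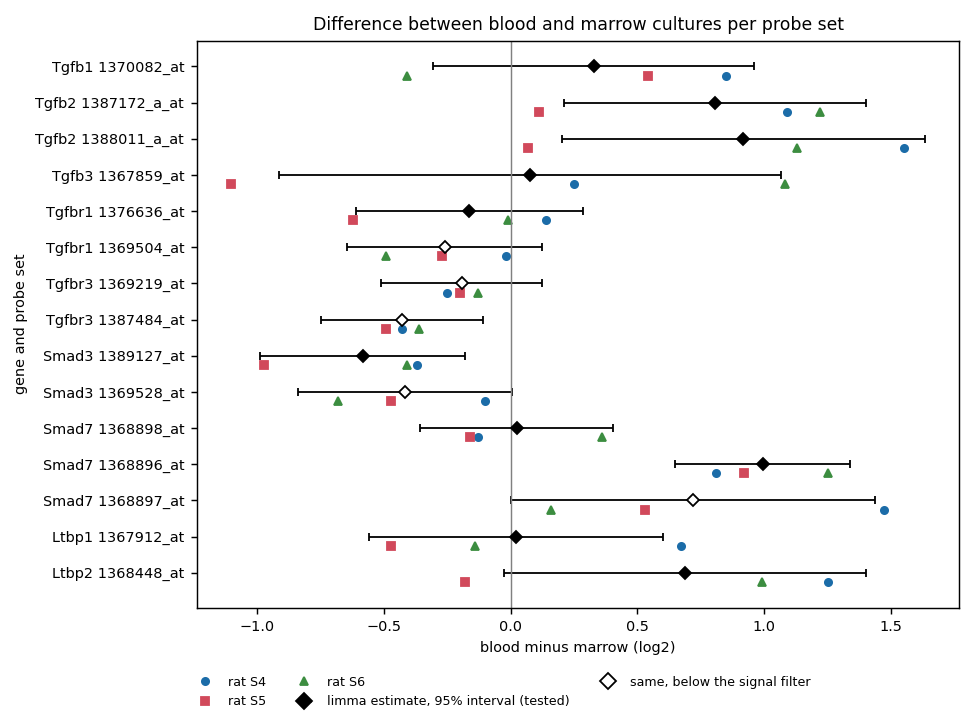
Difference between blood and marrow cultures (log2, horizontal axis) for each member probe set. Diamonds with bars are limma estimates with 95% intervals, open where the probe set lay below the signal filter, and coloured symbols are the 3 rats. Smad7 1368896_at is highest at 0.99, and Smad3 1389127_at is lowest at -0.58.

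Smad3, the receptor-activated SMAD that carries most TGF-beta transcription, averaged lower in blood cultures on both probe sets. Probe set 1389127_at stood at 9.62, 8.98 and 9.82 in blood cultures, against 9.99, 9.95 and 10.23 in those from marrow. The highest blood culture lay below the lowest marrow culture, as was so for 11.3% of all probe sets tested. The difference was -0.58 ± 0.16 (interval -0.99 to -0.18, adjusted p = 0.188 in limma), widest in rat S5 at -0.97 and -0.37 and -0.41 in the other rats. Without rat S5 it was -0.39 (adjusted p = 0.388 in limma). Probe set 1369528_at, below the filter, read 6.56, 6.34 and 6.05 in blood cultures, against 6.66, 6.81 and 6.73 in those from marrow, again without overlap, and differed by -0.42 ± 0.16 (adjusted p = 0.449 in limma without a filter).

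The arrays ordered other genes much as they did Smad3. Among 6905 kept probe sets with 1 gene symbol, those most like 1389127_at over the 6 arrays were Mbnl2 (Pearson r = 0.995), Cxxc5 (0.992), Dcaf8 (0.991), Ppp1r18 (0.988) and Nfib (0.986). Mbnl2 encodes a splicing factor, Cxxc5 a CXXC zinc finger protein and Nfib a transcription factor. All 5 were lower in blood than in marrow cultures of every rat, with differences of -0.20 to -0.50, and none passed. They were picked for their likeness to a probe set lower in every rat, so the choice largely set this direction. The 6 arrays share animals and culture sources, and these are the highest of many correlations, so they describe the arrays only.

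Smad7, the inhibitory SMAD, was represented by 3 probe sets designed against the same expressed sequence tag, and they did not read alike. Probe set 1368896_at stood at 10.05, 9.14 and 10.18 in the blood cultures of S4, S5 and S6, against 9.24, 8.22 and 8.93 in marrow cultures. In each rat the blood culture was higher, by 0.81, 0.92 and 1.25, although the blood culture of S5 lay just under the marrow culture of S4. The rise was 0.99 ± 0.14, or 1.99-fold (95% interval 1.57 to 2.53, adjusted p = 0.0341 in limma). Probe set 1368897_at, below the filter, read 8.35, 7.24 and 8.06 in blood cultures, against 6.88, 6.71 and 7.90 in those from marrow. It too was higher in every rat, by 1.47, 0.53 and 0.16, with a difference of 0.72 ± 0.28 (adjusted p = 0.443 in limma without a filter). Probe set 1368898_at read differently: it stood at 10.03, 10.23 and 10.16 in blood cultures, against 10.16, 10.39 and 9.80 in those from marrow. It differed by 0.02 ± 0.15 (interval -0.36 to 0.40, adjusted p = 0.98 in limma).

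The Smad7 call rests on the pairing by rat and on which probe sets were tested: without the rat term the adjusted p in limma was 0.298, with no signal filter 0.111, and with arrays scaled to a common trimmed mean or quantile normalised 0.0681 and 0.0711. Without rat S4 or S6 it was 0.302 and 0.223, and without rat S5, whose cultures were the lowest of either source on this probe set, 0.0329, while the difference stayed between 0.87 and 1.09.

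The latent TGF-beta binding proteins among the members, Ltbp1 and Ltbp2, lay above the table's median on all 6 arrays. Ltbp2, which binds fibrillin microfibrils and, unlike Ltbp1, is not known to hold latent ligand, read 11.90, 10.90 and 12.04 in blood cultures, against 10.65, 11.08 and 11.05 in those from marrow. It was higher in blood in rats S4 and S6, by 1.25 and 0.99, and lower in S5, by -0.18, giving 0.69 ± 0.29 (interval -0.03 to 1.40, adjusted p = 0.376 in limma). Without rat S5 the difference was 1.12 ± 0.18 and passed (adjusted p = 0.0179 in limma). Ltbp1, which tethers latent ligand to the matrix, read 10.76, 9.80 and 10.74 in blood cultures, against 10.09, 10.27 and 10.88 in those from marrow. Its per-rat differences of 0.67, -0.47 and -0.14 gave 0.02 ± 0.23 (interval -0.56 to 0.60, adjusted p = 0.990 in limma).

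Among the blood cultures, that of rat S5 was the lowest on 8 of the 10 member probe sets tested (80%), beside 56% of all probe sets tested. The 8 included both of Tgfb2, counted separately, and those of Tgfb3, Ltbp1 and Ltbp2. With the members below the filter, the blood culture of S5 was the lowest on 9 of 15. With rat S5 left out, 4 of the 10 kept member probe sets were past the threshold in limma, beside 4.99% of all tested, and with rat S4 or S6 left out 0 were. With S4 left out limma called 0 of the 8135 probe sets, and 2 of the 10 members and 9.47% of all had an unadjusted p under 0.05. With S6 left out it called 44, and 3 of the 10 members and 8.7% of all had such a p.

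**Figure D3:**
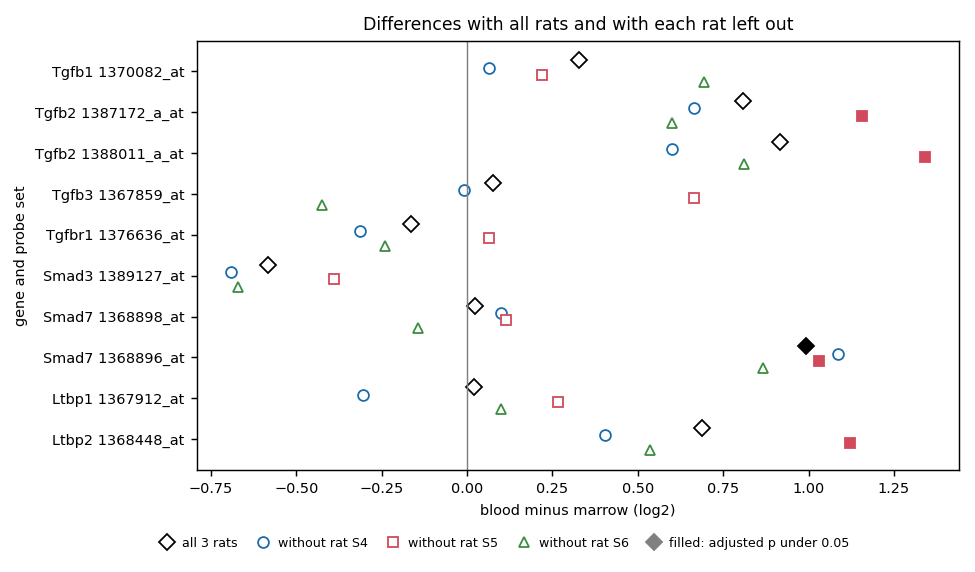
Difference between blood and marrow cultures (log2) of the 10 member probe sets tested, with all rats and with each rat left out. Filled symbols passed an adjusted p of 0.05. Both Tgfb2 probe sets and Ltbp2 are filled only where rat S5 was left out, and Smad7 1368896_at with all rats and without S5.

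Other genes of the pathway were read from 4 lists, with the brightest kept probe set standing for a gene. Of all 6110 genes tested, 2.03% were past the threshold. The lists were chosen with earlier results of these data known, so their counts beside this share are a description only. Of 10 tested receptors, SMADs and latent proteins, Bambi and Eng rose, Ltbp4 fell and 7 did not pass. Their median difference was -0.16, beside -0.01 for all genes. Ltbp4, Bambi and, in the lists that follow, A2m and Cdh2 were above the table's median only on the 3 arrays of the group where they were higher, so they were tested because of that group. The size of their differences is approximate, since no background level is known for the lower group. Ltbp4, the LTBP of elastic tissues, stood at 6.25, 6.72 and 6.77 in blood cultures, against 8.37, 9.47 and 9.19 in those from marrow. The groups were far apart in every rat, and the fall was -2.43 ± 0.16 (adjusted p = 0.00332 in limma). Bambi, a decoy receptor without a kinase, was higher by 1.74, 2.38 and 2.61 in S4, S5 and S6, and Eng, the co-receptor endoglin, by 2.27, 1.11 and 1.47 (adjusted p = 0.00693 and 0.0380 in limma). The Eng call is lost without the rat term (adjusted p = 0.0519 in limma) and without the filter (0.116). Ltbp3, the relative closest in role to Ltbp1, differed by -0.31 ± 0.12, Smad6, the other inhibitory SMAD, by 0.42 ± 0.16, and Acvrl1, the type I receptor ALK1, by -0.88 ± 0.45, and none of these passed.

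Of 12 tested genes that release or bind the ligand, A2m rose, none fell and 11 did not pass, with a median of -0.08. A2m, a plasma-type protease inhibitor that also binds growth factors, read 8.40, 9.54 and 8.71 in blood cultures, against 7.02, 7.0 and 7.01 in those from marrow (1.87 ± 0.24, adjusted p = 0.0232 in limma). Without the filter it did not pass (adjusted p = 0.0849 in limma). Next by p were Fmod, a collagen-bound proteoglycan, at 1.53 ± 0.27, Emilin1, which limits ligand processing, at -0.82 ± 0.25, and the membrane protease Mmp14 at -0.38 ± 0.12.

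Of 17 tested intracellular regulators, Cav1 rose, none fell and 16 did not pass, with a median of 0.12. Cav1, the caveolar coat protein through which receptors are turned over, was higher by 1.43, 0.86 and 0.81 in the 3 rats (1.03 ± 0.16, adjusted p = 0.0482 in limma). The groups overlapped, and the call is lost without the rat term (adjusted p = 0.403 in limma) and with a random rat term (0.384). Its second probe set was higher by 2.11, 1.30 and 0.57 and did not pass (adjusted p = 0.111 in limma). Dab2, an endocytic adaptor, differed by -0.94 ± 0.17, the ubiquitin ligase gene Smurf1, a partner of Smad7, by 0.59 ± 0.14, and Tgfb1i1, the focal adhesion protein Hic-5, by 0.70 ± 0.19, and none of the 3 passed.

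Of 29 tested genes listed as targets of TGF-beta, Cdh2 rose, Snai1 fell and 27 did not pass, with a median of 0.12. The list was not sorted by direction of response and also holds Myc, Id1, Id2 and Id3. Its median is therefore no measure of pathway activity. Snai1, the transcription factor that represses E-cadherin, stood at 9.62, 10.31 and 9.42 in blood cultures, against 11.25, 11.18 and 10.43 in those from marrow (-1.17 ± 0.18, adjusted p = 0.0438 in limma), a call lost without the rat term (0.155). Cdh2, or N-cadherin, read 11.74, 10.89 and 11.49 in blood cultures, against 4.90, 6.40 and 6.09 in those from marrow (adjusted p = 0.00484 in limma). The marrow values lie far below the median, and the fitted difference was 5.58 on this probe set and 6.94 on the other. Postn, the matrix protein periostin, differed by -4.29, -1.02 and -2.49, and the contractile genes Tagln by 1.33, 0.33 and 1.12 and Tpm1 by 0.77, 0.21 and 1.01, and these 3 did not pass.

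**Figure D4:**
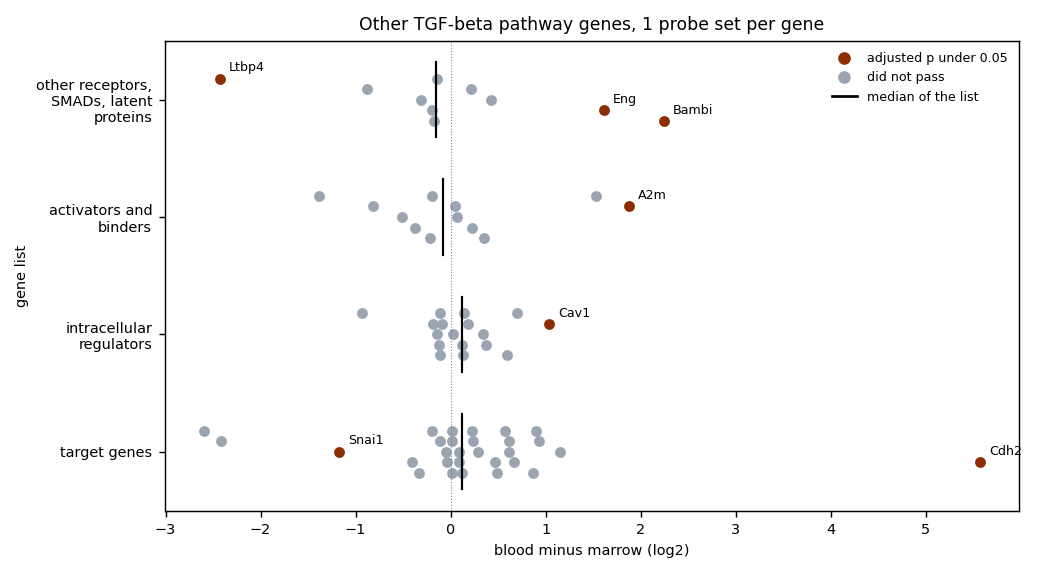
Difference between blood and marrow cultures (log2) of each tested gene in the 4 pathway lists; dark points passed an adjusted p of 0.05 and are named, and vertical lines are list medians. The medians lie between -0.16 and 0.12, and 7 genes passed.

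Of these 7 list genes, Ltbp4 passed under 8 of 9 alternatives, Bambi and Cdh2 under 7 of 9 and A2m under 4 of 9. Cav1 and Eng passed under 4 of 10 and Snai1 under 3 of 10. The genes with 9 alternatives are dropped by the stricter filter, which asks for a signal above the table's median on all 6 arrays. Their counts therefore leave out a setting in which they are not tested. The direction of each was kept throughout. All 7 had the same sign in every rat, so the filter, block and left-out-rat settings could not have changed it.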

How the data were processed

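Affymetrix RAE230A arrays measured RNA of 3 blood and 3 marrow cultures, from 10 µg of total RNA each. The deposited values are log2 signals by their range; no source used here gives the base, the probe summary, the background correction or the normalization, and GCOS is the only tool in the submitters' processing notes. Empty cells numbered 86 and stayed empty, and 94 values were 0. Per the deposited instrument settings, rats S4 and S5 shared fluidics station 1 and S6 used station 2, so per-rat differences lie within a station. Within a station blood and marrow arrays used different modules, so module and group cannot be told apart within a rat.

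Of all probe sets 12789 had 1 gene symbol, 312 several and 2822 none, and only the first were named; 57 control probe sets were left out. Values were used as they are, with a pseudocount of 0, and fitted with limma 3.58.1 in R 4.3.3 (lmFit, eBayes, two-sided) on the whole table with a fixed term for the animal, since the design text pairs blood with marrow by rat. Deviations from group means correlated at -0.29, 0.30 and 0.33 for the cultures of S4, S5 and S6, beside -0.47 to 0.42 between different rats, so the values themselves do not show the pairing. The fit was tested on simulated data. Alternatives were no rat term, a random rat term, each rat left out, a common trimmed mean, quantile normalization, a pseudocount of 50, no filter and a stricter filter. No 2 arrays were alike (SD of the log2 difference 0.263 or more). Named were all members, list genes past the threshold and the 3 next by p in each list. Members and lists were chosen with earlier results of these data known. Intervals are at 95%, and the number of arrays limits the precision. Figures were drawn with matplotlib 3.10.9, and tables were made with pandas 2.3.3 and numpy 2.4.6 under Python 3.11.15.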

Additional observations from a re-analysis of the deposited data

How the results depend on the processing

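The count of all probe sets past the threshold was 175 with the settings reported, 82 without a signal filter, 104 with a common trimmed mean, 108 with quantile normalization and 0 to 406 with a rat left out. For the members it was 1, and 0 with no replicate block, a random replicate block, no filter, a common trimmed mean or quantile normalization, and 0 to 4 with a rat left out. For the list genes it was 7, against 4 with no replicate block, 3 with no filter, 3 and 4 with the trimmed mean and quantile normalization, and 0 to 17 with a rat left out. Smad7 1368896_at was at 0.99 under no filter, both block alternatives and the trimmed mean, and at 0.995 with quantile normalization. With a rat left out it was 0.87 to 1.09. It passed under 3 of the 10 alternatives, with adjusted p of 0.0204 to 0.302 in limma. Its direction was the same under all 10, but filter and block settings cannot move the estimates of the member probe sets. Leaving out a rat could not turn this difference either, as every rat had the same sign. With a rat left out, differences changed sign for Tgfb3 (-0.425 to 0.665, and -0.01 without S4), Tgfbr1 1376636_at (-0.315 to 0.065), Smad7 1368898_at (-0.145 to 0.115) and Ltbp1 (-0.305 to 0.265). None of these passed under any setting. The other member probe sets kept their sign under every alternative run. Except for Tgfb1 and Ltbp2, they had the same sign in every rat, so leaving out a rat could not turn them. The cause of the sign changes was not tested. Signals below the table's median have no known background, which limits Tgfbr3 and the dimmer probe sets of Tgfbr1, Smad3 and Smad7.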

Other observations

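Other TGF-beta related genes with wide differences did not pass and were picked after their values were seen. Aspn, or asporin, a small proteoglycan that binds TGF-beta, lay below the signal filter and read 2.91, 4.90 and 4.45 in blood cultures of S4, S5 and S6, against 9.81, 8.04 and 7.27 in marrow cultures (adjusted p = 0.174 in limma without a filter). Every blood culture was below every marrow culture, with differences of -6.90, -3.14 and -2.82. Tgfbi, a matrix protein named for its induction by TGF-beta, read 6.16, 9.83 and 6.48 in the blood cultures, against 11.15, 9.97 and 8.61 in those from marrow (adjusted p = 0.289 in limma). The proteoglycan decorin, Dcn, showed the same split of rats, with 10.55, 12.89 and 10.44 in the blood cultures, against 12.57, 12.83 and 12.63 in those from marrow (adjusted p = 0.25 in limma). For both genes the blood cultures of S4 and S6 lay below all marrow cultures. That of S5 lay among them for Tgfbi and just above them for Dcn.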
